A study of Bos grunniens with 6 samples.

Results

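The miR-379 to miR-656 cluster is a run of miRNA genes in the imprinted DLK1-DIO3 domain, and its members were compared here between 2 kinds of cultured skin cells of the yak (Bos grunniens), from the dermal papilla and from the hair matrix. Members were chosen by name alone, as every entry of the deposited small RNA table with a cattle miRNA name and a number that belongs to the cluster, whatever its letter or arm and with no filter on level. The rule took 46 of the 2853 entries, 757 of which carry cattle miRNA names. Of the 34 numbers in the rule, 32 had an entry, and miR-889 and miR-1193 had none. No genome positions were used, so membership rests on the miRNA numbers.

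Dermal papilla cells are follicle mesenchyme and signal to the overlying epithelium. Hair matrix cells are the dividing epithelium around the papilla, from which the shaft grows. Each cell type had 3 libraries, wild type by genotype, isolated from skin and cultured in the same DMEM/F12 medium with 10% fetal bovine serum, 10 ng/mL IGF1 and 20 ng/mL EGF. Replicates are called biological in the labels, which name no animals or separate cultures, so the p-values measure only the spread between these libraries, which may be technical. Cells were sequenced in bulk, so fewer cells that hold a miRNA and less of it per cell cannot be told apart.

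In mammals studied so far the miRNAs of this cluster are cut from long non-coding transcripts of the maternally inherited chromosome, while the protein-coding genes of the same domain, DLK1, RTL1 and DIO3, are read from the paternal one. A mature miRNA pairs with messenger RNAs mainly through its seed, bases 2 to 8 from the 5′ end, and lowers their translation or stability. The cluster is known for its high levels in embryo, placenta and brain, where several members, miR-134, miR-329 and miR-381 among them, act in the growth of neuronal dendrites. By its title, the study asked how miRNA profiles of the 2 cell types differ.

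The 12 members with the highest mean over the 6 libraries are shown first, because they carried over 90% of the cluster's reads in each cell type. Sequences are those of the deposited table, 5′ to 3′ and with T for U, and capitals mark the seed.
miR-411a: aTAGTAGAccgtatagcgtacg
miR-379: tGGTAGACtatggaacgtagg
miR-381: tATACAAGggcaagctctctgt
miR-154c: aGATATTGcacggttgatctct
miR-411c-5p: gGTTGATCagagaacatacatt
miR-369-3p: aATAATACatggttgatcttt
miR-543: aAACATTCgcggtgcacttctt
miR-382: gAAGTTGTtcgtggtggattcg
miR-654: tATGTCTGctgaccatcacctt
miR-380-3p: tATGTAATgtggtccacgtct
miR-495: aAACAAACatggtgcacttctt
miR-323: gCACATTAcacggtcgacctct
No member shared its seed with any of these 12, so the abundant part of the cluster held 12 different seeds. Over all 46 members there were 44 different seeds, and only miR-376a, miR-376b and miR-376d had one in common. Members were 21 bases long in 14 cases, 22 in 28 and 23 in 4.

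Every one of the 46 members had at least 1 read, as did all 2853 listed entries. The cluster as a whole was a dermal papilla signal. Levels are given as RPM, an entry's reads scaled to the read total of its library, and libraries held 23904796 to 24693655 reads. Of these, 71.7% to 73.5% fell on listed entries. Summed over its members, the cluster stood at 3689, 3575 and 3576 RPM in the 3 dermal papilla libraries (3614 ± 65.3, SD, n = 3). The same sum was 8.63, 7.64 and 10.5 RPM in the 3 hair matrix libraries (8.93 ± 1.47, SD, n = 3), a ratio of means of 404. All 3 dermal papilla sums lay far above all 3 hair matrix sums, and the ratio was 416 without miR-411a, the most abundant member. In reads, the cluster had 260481 over the dermal papilla libraries and 653 over the hair matrix libraries. Its share of listed reads was 0.497% ± 0.00931 in dermal papilla libraries against 0.00123% ± 0.000211 in hair matrix libraries (SD, n = 3 each).

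**Figure D1:**
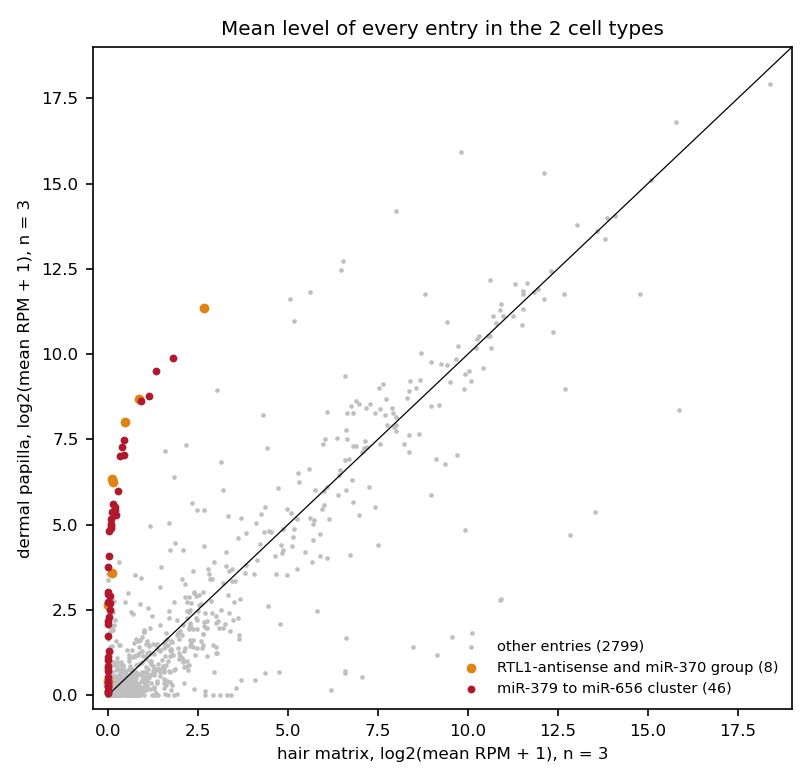
Mean level of each of the 2853 entries over 3 hair matrix libraries (horizontal axis) and 3 dermal papilla libraries (vertical axis), both as log2(mean RPM + 1), with the diagonal of equal levels. The 46 cluster members and the 8 members of the neighbouring RTL1-antisense and miR-370 group lie along the left edge, above the diagonal.

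The test took entries that reached 1 RPM in 3 or more of the 6 libraries, 503 in all, of which 33 were members of the cluster. All 33 were called higher in dermal papilla cells by limma on log2(RPM + 1), at a Benjamini-Hochberg adjusted p under 0.05 and a change of at least 2-fold, where 25.2% of all tested entries were called in that direction. Their log2 changes ran from 1.13 to 8.18. However, 31 of the 33 were tested on the strength of their dermal papilla levels alone, so their direction follows from the filter and their count carries no weight of its own. Only miR-411a and miR-379 reached 1 RPM in all 3 hair matrix libraries. With a pseudocount of 10 in place of 1, calls fell to 21, since the 12 tested members with means under 10 RPM lost theirs through the 2-fold minimum.

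A fit that needs no filter was therefore made on whole reads, which were recovered exactly from the RPM values. With edgeR's quasi-likelihood test on all 2853 entries, 42 of the 46 members were called in the dermal papilla direction and 0 in the other, where 8.52% of all entries were called higher in dermal papilla cells. Of the 13 members too low for the filter, 9 were called this way. The 4 that were not called, miR-1185, miR-668-3p, miR-380-5p and miR-544a, had between 3 and 6 reads over the 3 dermal papilla libraries and 0 in hair matrix cells. Values of the 2 cell types did not overlap for 41 of the 46 members, every dermal papilla value being the higher, against 14.3% of all entries with this pattern. The 5 members with overlap were those 4 and miR-154a, and in each of them at least 1 dermal papilla library had no read. Without a filter, the median log2 change on the log2(RPM + 1) scale was 2.91 over the 46 members and -0.0016 over all entries.

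The level of single members in dermal papilla cells spanned more than 4 orders of magnitude. Means over the 3 libraries reached 100 RPM for 8 members, lay between 10 and 100 RPM for 13 and between 1 and 10 RPM for 13, and were under 1 RPM for 12, with a median of 6.67 RPM over the 46. RPM values were compared between members directly, as levels of reads. Whether different sequences are captured equally well in such libraries was not tested.

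At the top stood miR-411a, with 962, 915 and 946 RPM in the dermal papilla libraries and 2.59, 2.04 and 2.87 RPM in the hair matrix libraries. miR-379, the member that gives the cluster its name, had 758.1, 715.0 and 721.7 RPM against 1.34, 1.31 and 1.96 RPM. These were the only members above 1 RPM in all 3 hair matrix libraries, and in both the lowest dermal papilla library was far above the highest hair matrix library. The ratio of means was 375.9 for miR-411a and 477 for miR-379. On the log2(RPM + 1) scale miR-411a rose by 8.08 ± 0.0953 (SE, limma adjusted p = 6.75e-10), and miR-379 by 8.18 ± 0.106 (SE, limma adjusted p = 9.02e-10).

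The next pair were miR-381, which acts in dendrite growth, and miR-154c. miR-381 was at 407, 439 and 467 RPM in dermal papilla cells and at 0.850, 1.39 and 1.42 RPM in hair matrix cells, a ratio of 359 (log2 change 7.64 ± 0.119, SE, limma adjusted p = 1.71e-09). miR-154c was at 415, 384 and 396 RPM and at 0.891, 0.653 and 1.17 RPM, a ratio of 441 (log2 change 7.72 ± 0.106, SE, limma adjusted p = 1.21e-09). The order of these 2 was not the same in each library, miR-154c being the higher in dermal papilla library 1 and miR-381 in the other two. The intervals of mean ± SD, 437 ± 29.8 RPM for miR-381 and 398 ± 15.5 RPM for miR-154c (n = 3), did not separate them beyond their spread.

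A group of 4 members followed with means above 100 RPM. miR-411c-5p had 185, 172 and 174 RPM in dermal papilla cells and 0.324, 0.0817 and 0.708 RPM in hair matrix cells. miR-369-3p, which is known to bind AU-rich elements of messenger RNAs, had 171, 177 and 117 RPM against 0.283, 0.245 and 0.458 RPM, with dermal papilla library 3 clearly the lowest. miR-543 had 138.6, 134.4 and 118.0 RPM against 0.526, 0.245 and 0.333 RPM. In all of these each dermal papilla library was above 100 RPM and each hair matrix library below 1 RPM. miR-382 had 128.9, 128.9 and 128.8 RPM against 0.162, 0.327 and 0.333 RPM, the most even of the abundant members across the dermal papilla libraries. Ratios of means were 476 for miR-411c-5p, 471 for miR-369-3p, 354 for miR-543 and 470 for miR-382. All 4 rose, with log2 changes of 7.04 ± 0.160 for miR-411c-5p, 6.85 ± 0.169 for miR-369-3p, 6.59 ± 0.106 for miR-543 and 6.67 ± 0.0808 for miR-382 (SE, limma adjusted p from 6.75e-10 to 1.76e-08).

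The remaining 4 of the 12 were at 40 to 65 RPM. miR-654 had 64.6, 62.7 and 59.1 RPM in dermal papilla cells and 0.324, 0.123 and 0.208 RPM in hair matrix cells. miR-380-3p had 48.7, 46.3 and 47.0 RPM against 0.121, 0.0408 and 0.167 RPM. miR-495 had 49.6, 41.1 and 44.7 RPM against 0.162, 0.286 and 0.0417 RPM. The lowest of these hair matrix values stand for 1 read in a library, and 3 reads, the floor used here for counting error, amount to 0.121 to 0.125 RPM per library. miR-323 had 40.7, 42.0 and 44.0 RPM against 0.202, 0.0817 and 0.167 RPM. Ratios of means were 285 for miR-654, 431.8 for miR-380-3p, 277 for miR-495 and 281 for miR-323. Log2 changes were 5.70 ± 0.0897 for miR-654, 5.45 ± 0.0790 for miR-380-3p, 5.31 ± 0.112 for miR-495 and 5.23 ± 0.0804 for miR-323 (SE, limma adjusted p from 1.60e-09 to 7.29e-09). The dermal papilla means of miR-380-3p (47.3 ± 1.24 RPM, SD, n = 3) and miR-495 (45.1 ± 4.25 RPM) did not differ beyond their spread, nor did those of miR-495 and miR-323 (42.2 ± 1.69 RPM).

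**Figure D2:**
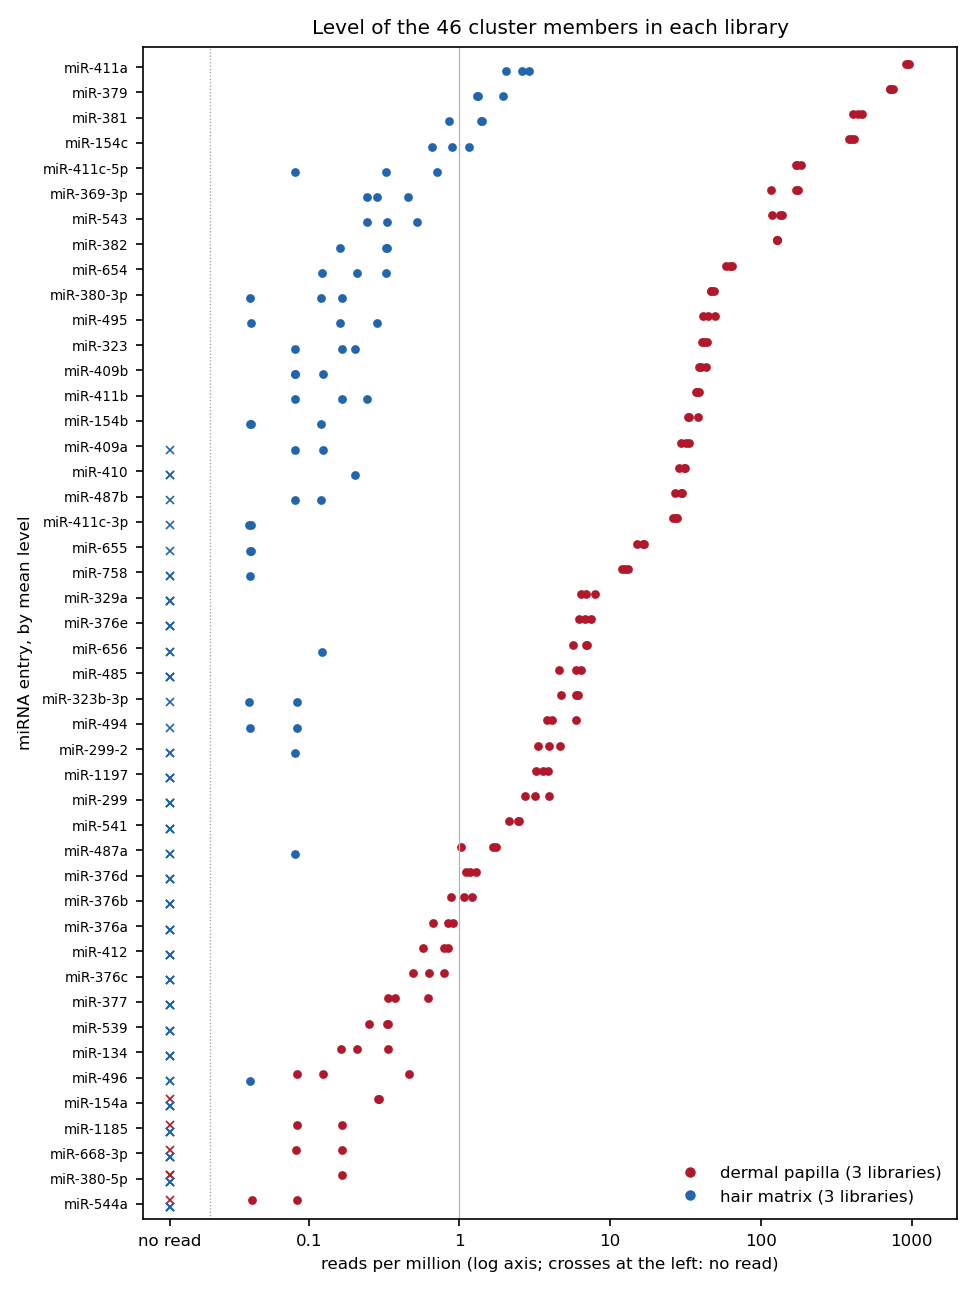
Level of each of the 46 members in each of the 3 dermal papilla libraries (red) and 3 hair matrix libraries (blue), in RPM on a log axis, with members ordered by mean level and crosses at the left for libraries without a read. Mean dermal papilla levels fall from 941 RPM for miR-411a to 0.0418 RPM for miR-544a, with points close together at the top and scattered at the bottom, where 5 members lack a read in some dermal papilla library, and 19 members have no read in any hair matrix library.

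Below these 12, members of the 10 to 100 RPM class were miR-409b (40.8 ± 2.55 RPM in dermal papilla cells, SD, n = 3), miR-411b (37.9 ± 1.10), miR-154b (35.1 ± 3.05), miR-409a (31.6 ± 1.89), miR-410 (30.5 ± 1.48), miR-487b (28.8 ± 1.64), miR-411c-3p, miR-655 (16.1 ± 0.911) and miR-758 (12.5 ± 0.558). Background roles are known for some of these: miR-655 can repress the transcription factor ZEB1, and miR-758 the cholesterol transporter ABCA1. All 9 were called higher in dermal papilla cells by limma (25.2% of all tested entries), but their direction follows from the filter. Among members with more than 3 hair matrix reads, the ratio of means was highest for miR-154b, at 516, and lowest for miR-411b, at 231. These ratios rest on 5 and 12 hair matrix reads, so their order is uncertain. All 5 hair matrix reads of miR-410 came from library 1, and the other two hair matrix libraries had none. miR-655 and miR-758 had 2 reads and 1 read over the 3 hair matrix libraries.

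Members of the 1 to 10 RPM class were miR-329a (7.09 ± 0.749 RPM), miR-376e (6.83 ± 0.630), miR-656 (6.51 ± 0.745), miR-485 (5.64 ± 0.971), miR-323b-3p (5.57 ± 0.756), miR-494 (4.62 ± 1.15), miR-299-2 (3.96 ± 0.669), miR-1197 (3.55 ± 0.318), miR-299 (3.28 ± 0.629), miR-541 (2.34 ± 0.186), miR-487a, miR-376d and miR-376b (SD, n = 3). The 12 of these that were tested were called with a pseudocount of 1 (25.2% of all tested entries) and not with one of 10. Their direction follows from the filter too. Among them, miR-329a had 0 hair matrix reads, and against a floor of 3 reads over the 3 libraries, 0.0410 RPM, it was at least 173-fold higher in dermal papilla cells. miR-376e was at least 167-fold higher on the same terms, and miR-485 at least 138-fold. For miR-656, with 3 hair matrix reads, the ratio was 159 with a counting interval (95%, exact) of 54.0 to 772.

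Near the threshold of the filter, the filter turns on an entry's third-highest library, and the 2 tested members in which it lay closest to 1 RPM were miR-487a and miR-376d, at 1.03 and 1.11 RPM. miR-487a had 1.67, 1.75 and 1.03 RPM in dermal papilla cells and 0.0810, 0 and 0 RPM in hair matrix cells, while miR-376d had 1.17, 1.30 and 1.11 RPM against no read. Just outside, at 0.877 and 0.669 RPM in their third-highest library, were miR-376b, with 1.21, 0.877 and 1.07 RPM, and miR-376a, with 0.669, 0.836 and 0.907 RPM, both without a hair matrix read. All 4 were clearly present in every dermal papilla library, and the filter alone parts them. miR-487a and miR-376d had log2 changes of 1.26 ± 0.129 and 1.13 ± 0.0707 (SE, limma adjusted p = 6.07e-05 and 3.64e-06), and both lost their calls with median centring too (0.99 and 0.86), through the 2-fold minimum. With a pseudocount of 10 their changes were 0.20 and 0.16.

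Further down were miR-412 at a mean of 0.736 RPM in dermal papilla cells, miR-376c at 0.639, miR-377 at 0.443, miR-539 at 0.305, miR-134 at 0.236, miR-496 at 0.222 and miR-154a at 0.194. Of these 7, only miR-496 had a hair matrix read, a single one, and dermal papilla library 1 held 11 of its 16 dermal papilla reads. With edgeR and no filter, the adjusted p of these 7 ran from 1.13e-04 for miR-412 to 0.0494 for miR-154a, the latter close to the threshold. At the bottom, miR-1185 averaged 0.0836 RPM, miR-668-3p 0.0833 RPM, miR-380-5p 0.0558 RPM and miR-544a 0.0418 RPM, with edgeR adjusted p from 0.139 to 0.320.

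In hair matrix cells 19 of the 46 members had no read in any library, 9 had 1 to 3 reads over the 3 libraries and 18 had more. For the 18 members with more than 3 reads the ratios of means ran from 231 to 516 with a median of 428.7, at dermal papilla levels from 28.8 to 941 RPM. Asking for more than 3 hair matrix reads limits how high the ratio of the lower members can be, so this range is in part set by the cut. With 1 to 3 reads, ratios ran from 16.2 for miR-496 to 995 for miR-411c-3p, with wide counting intervals. Of the 19 without a hair matrix read, 18 had lower bounds of at least 1.36-fold to at least 173-fold, and miR-544a was at the floor in both cell types. With hair matrix levels set to no less than the floor, the median log2 ratio over the 45 members with a fold was 7.38.

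The few reads of the cluster in hair matrix cells were divided among members in a broadly similar way to the many in dermal papilla cells, when libraries were summed. miR-411a took 26.0% of the cluster's reads in dermal papilla cells (exact binomial 95% interval 25.9% to 26.2%) and 28.0% in hair matrix cells (24.6% to 31.6%). miR-379 took 20.2% and 17.2% (14.3% to 20.3% in hair matrix cells). miR-381 took 12.1% and 13.6% (11.1% to 16.5%), and miR-154c 11.0% and 10.1% (7.90% to 12.7%). For all 46 members the share in dermal papilla cells lay within the exact interval of the share in hair matrix cells. These intervals are wide because they rest on 653 reads. For the 19 members without a hair matrix read they reach 0.563%, so dermal papilla shares of at most 0.196% lay inside in any case. The intervals also sum 3 libraries, in which shares differed, as for miR-411c-5p at 3.76%, 1.07% and 6.72% in hair matrix cells. The 12 most abundant members together held 91.2% of the cluster's dermal papilla reads and 91.1% of its hair matrix reads. Across the 46 members, which are not independent and share their libraries, the shares in the cell types correlated with Pearson's r of 0.992 and summed reads with Spearman's rho of 0.904.

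**Figure D3:**
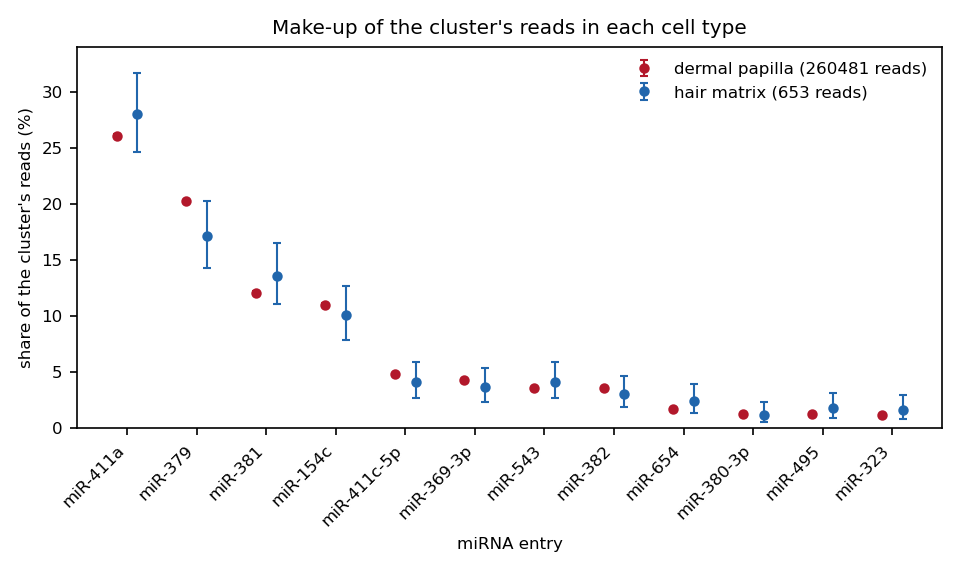
Share of the cluster's reads, in percent, taken by each of its 12 most abundant members in dermal papilla cells (red, of 260481 reads) and hair matrix cells (blue, of 653 reads), with libraries of a cell type summed and bars for the exact binomial 95% interval. In each of the 12 the dermal papilla share lies inside the hair matrix interval, as for miR-411a with 26.0% inside 24.6% to 31.6%.

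Marker miRNAs of the cell types moved with the labels. The 6 entries of the mesenchymal markers miR-143, miR-145, miR-199a, miR-199b and miR-214 summed to 88413 to 91201 RPM in dermal papilla libraries and 1204 to 1421 RPM in hair matrix libraries, a ratio of means of 70.2. All 6 were called higher in dermal papilla cells, as were 25.2% of all tested entries. The 9 epithelial entries (the miR-200 family, miR-205 and the miR-183 group) summed to 93.8 to 123 RPM in dermal papilla libraries and 26523 to 26594 RPM in hair matrix libraries, a ratio of 238 the other way. All 9 were called higher in hair matrix cells, as were 100 of the 503 tested entries. No entry of either list was at 0 in either cell type. Cluster reads and mesenchymal markers were thus both present in the hair matrix libraries, but at unlike levels. The cluster's mean sum there was 8.93 RPM, with a ratio of 404 between the cell types. The marker sum was 1204 to 1421 RPM, with a ratio of 70.2. The part that other cells in those cultures take in the cluster's traces was not tested. Neural entries (miR-9-5p, miR-338 and 3 entries of miR-219) summed to 41.3 to 45.2 RPM in dermal papilla and 35.6 to 39.2 RPM in hair matrix libraries, and most of this was miR-9-5p, at means of 39.8 and 33.1 RPM. By limma 0 of the 2 tested neural entries were called. The list also held miR-124, which had no entry. Neural miRNAs outside the list were not counted, so this result covers the named entries only. The 5 entries of muscle markers summed to 58.4 to 72.9 RPM and 40.9 to 42.6 RPM, with 1 of the 2 tested called in each direction. The 6 blood and immune entries gave 19.3 to 21.5 RPM and 8.50 to 11.8 RPM, a ratio of 2.01, and the 2 endothelial entries 3.68 to 4.70 RPM and 2.57 to 4.01 RPM, with 0 of 3 tested entries called in these lists. In these lists miR-133b had no read in hair matrix cells and miR-142-3p none in dermal papilla cells, and their part in the cluster's levels was not tested.

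The spread of abundant members between dermal papilla libraries was small. Of the 21 members at 10 RPM or more, 20 had a coefficient of variation under 10%, with a median of 4.48%, and the median over all 227 entries at this level in dermal papilla cells was 5.11%. miR-382 had the lowest, 0.0185%, where counting error alone gives 1.80%. The exception was miR-369-3p at 21.6%, against 1.64% from counting error, and 13.5% marks the 90th percentile of the 227 entries. This spread came from dermal papilla library 3, in which miR-369-3p was at 117 RPM against 171 and 177 RPM. The next highest was miR-495 at 9.42%. The 13 members at 1 to 10 RPM varied more, with a median of 13.6%, and the median over all 203 entries at that level was 14.5%, with a 90th percentile of 32.4%. Among these 13, miR-487a varied most, by 26.7%, and miR-494 by 24.8%, both under that percentile. The order of the 46 members was nearly the same in each pair of dermal papilla libraries (Spearman's rho from 0.992 to 0.994, over members of shared libraries).

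**Figure D4:**
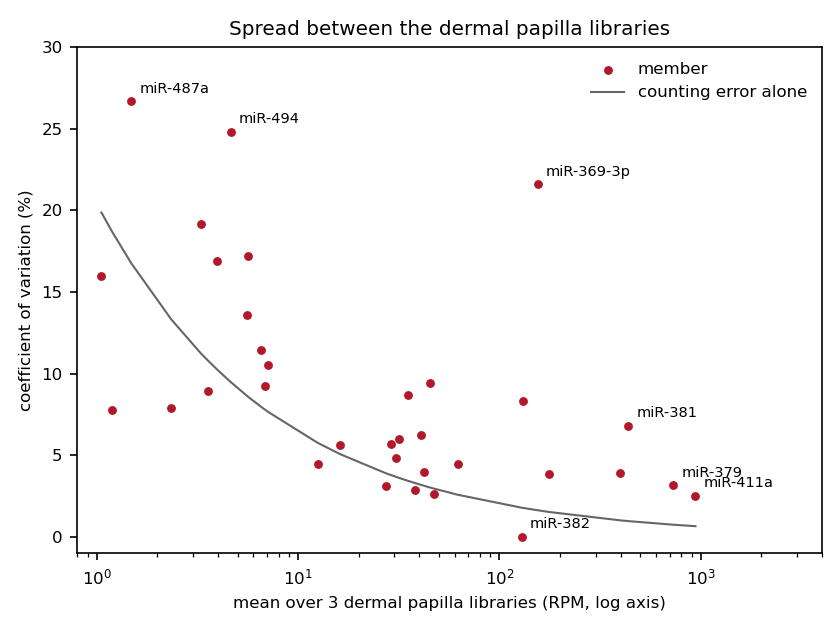
Coefficient of variation over the 3 dermal papilla libraries, in percent, against mean level in RPM on a log axis, for members at 1 RPM or more, with the line that counting error alone gives. miR-369-3p, at 21.6%, stands apart from the other members above 10 RPM, which all lie under 10%.

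Both arms were listed for 2 hairpins. The 5p arm of miR-411c took 87.0%, 86.0% and 86.9% of the hairpin's reads in the dermal papilla libraries (86.7% ± 0.533, SD, n = 3), so the 5p arm dominated evenly. In hair matrix cells its 5p share was 8 of 9 reads in library 1 (88.9%, exact interval 51.8% to 99.7%) and 17 of 18 in library 3 (94.4%, 72.7% to 99.9%), and the dermal papilla shares lay inside both intervals. The 3p arm, miR-411c-3p, was at 27.5, 27.8 and 26.2 RPM in dermal papilla cells and at 0.0405, 0 and 0.0417 RPM in hair matrix cells, a ratio of 995 with a counting interval of 275 to 8221 from 2 hair matrix reads (log2 change 4.78 ± 0.0736, SE, limma adjusted p = 1.60e-09). For miR-380 the dominant arm was the opposite one. miR-380-5p had 4 reads in dermal papilla library 1 (0.167 RPM) and 0 in the other two, so the 5p share was 0.342% in library 1 and 0 in libraries 2 and 3, where 0 of 1109 and 0 of 1139 reads allow up to 0.332% and 0.323% (exact upper limits).

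Members that share a number did not share a level. In the miR-154 group, miR-154c averaged 2055 times the level of miR-154a in dermal papilla cells. In the miR-411 group, miR-411a was 34.6 times miR-411c-3p, and the 4 entries summed to 1183 ± 29.3 RPM (SD, n = 3). By contrast, miR-409b and miR-409a were within a ratio of 1.29, and miR-299-2 and miR-299 within 1.204. miR-487b stood 19.4 times above miR-487a, and miR-323 stood 7.59 times above miR-323b-3p. The 4 miR-411 entries had 4 different seeds and the 3 miR-154 entries 3.

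The miR-376 group, known for A-to-I editing of its precursors by ADAR enzymes, was the only one with a shared seed. Its 5 entries summed to 10.5 ± 0.761 RPM in dermal papilla cells (SD, n = 3) and to 0 reads in hair matrix cells. The near-identical entries are shown because a read could fit more than 1 of them, with the seed in capitals.
miR-376e: aACATAGAggaaaatccacatt
miR-376d: aTCATAGAggaaaatccacat
miR-376b: aTCATAGAggaaaatccatgtt
miR-376a: aTCATAGAggaaaatccacgt
Counting positions from 1 at the 5′ end, the seed of miR-376e differs from that of the other 3 by A2T. miR-376a and miR-376b, miR-376a and miR-376d, and miR-376d and miR-376e had at most 1 mismatch over at least 18 bases. The authors' rule for reads that match several entries is not given in the sources used here, so the levels of these 4 are uncertain.

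miR-134, which acts at neuronal synapses by repressing the kinase LIMK1, was among the lowest members, with 5, 8 and 4 reads in the dermal papilla libraries and 0 in hair matrix cells, at least 5.76-fold higher. A predicted entry of the table, novel18, matches miR-134 over 20 bases with 1 mismatch when shifted by 2 bases, and the pair is shown because reads of one could have been counted for the other.
miR-134: tGTGACTGgttgaccagagtgg
novel18: tGTGTGACtggttgaccagagc
The predicted entry was at 5.86, 6.56 and 7.88 RPM in dermal papilla cells, 28.6 times the mean of miR-134, and at 0, 0.0408 and 0 RPM in hair matrix cells. All its dermal papilla values were above its hair matrix values, and it rose by 2.93 ± 0.109 on the log2(RPM + 1) scale (SE, limma adjusted p = 1.82e-07). This predicted entry passed the filter through its dermal papilla levels alone, so its direction follows from the filter. Because reads of one could have been counted for the other, the low level of miR-134 is uncertain.

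Although seeds were rarely shared, 10 pairs of members had seeds that differ at a single base. Some of these members are shown because their seeds form 1 series, with the seed in capitals.
miR-379: tGGTAGACtatggaacgtagg
miR-411b: tGGTCGACcataaaacgtacgt
miR-380-5p: tGGTTGACcatagaacatgcgc
From miR-379 to miR-411b the change is A5C, from miR-379 to miR-380-5p it is A5T, and from miR-411b to miR-380-5p it is C5T. Their dermal papilla levels were far apart, at 732 ± 23.2, 37.9 ± 1.10 and 0.0558 ± 0.0966 RPM (SD, n = 3). In other pairs, miR-369-3p differed from miR-323b-3p by T3C and from miR-487a by A4C, and miR-487b differed from miR-487a by G5A. Of the 46 members, 6 shared a seed with an entry outside the cluster, among them miR-329a with miR-362-3p and miR-496 with miR-503-3p.

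The letters GGTNGA, in which N is any base, were found in 9 of the 46 members (19.6%) and in 15 of the 711 other entries with cattle names (2.11%), reading only the strand that is listed. Several other strings were counted too, among them CATAGA, in 5 members, mostly of the miR-376 group, and in 0 of the 711 other entries. GGTNGA was chosen after the sequences were seen, so no test was made. A few examples show it in capitals in the 3′ part, while in miR-379, miR-411b and miR-380-5p above it overlaps the seed.
miR-154c: agatattgcacGGTTGAtctct
miR-369-3p: aataatacatGGTTGAtcttt
miR-323: gcacattacacGGTCGAcctct
The median GC content was 45.5% in members and 45.8% in other cattle entries.

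The other miRNA group of the DLK1-DIO3 domain, which is transcribed antisense to RTL1 or lies beside it, had 8 entries: miR-127, miR-136, miR-370, miR-431, miR-432, miR-433, miR-493 and miR-665. Of these, 7 were tested and all 7 called higher in dermal papilla cells by limma (25.2% of all tested entries), but 6 of them, all except miR-127, passed the filter through their dermal papilla levels alone, so their direction follows from it. Without a filter, edgeR called 8 of 8 (8.52% of all entries). Their sum was 3399, 3297 and 3685 RPM in dermal papilla cells and 6.90 ± 0.781 RPM (SD, n = 3) in hair matrix cells, a ratio of means of 501. The cluster from miR-379 to miR-656 with its 46 entries was thus about level with these 8 in dermal papilla cells, at 1.05 ± 0.0659 times their sum (SD, n = 3), and at 1.29 ± 0.120 times in hair matrix cells. In the dermal papilla libraries the ratio lay on both sides of 1, from 0.971 to 1.09, and in the hair matrix libraries it was 1.18 to 1.42, with no overlap between the cell types. The hair matrix ratios rest on 653 and 505 reads over the 3 libraries, and whether the gap exceeds counting error was not tested. The near balance in dermal papilla cells rests on single entries of each group. The log2 ratio of the sums was 0.06 ± 0.0927 (SD, n = 3), -0.37 without miR-411a, and 2.10 ± 0.0913 without miR-127, which alone held 75.7% of the sum of the RTL1 group.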

How the data were processed

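Per the labels' protocols, small RNA libraries (3 dermal papilla, 3 hair matrix) were made with a TruSeq kit from 1 µg RNA each. Tools in the submitters' processing notes, listed without roles, are DESeq 1.20.0, HISAT2 2.2.1.0 and Trimmomatic. Which genome build and miRNA reference they used is not given in the sources used here. Deposited values, called TPM by the authors, are RPM: 100% are whole multiples of 1 read (tolerance 0.001), so whole reads were recovered. The design had assumed TPM, and its test also suits RPM.

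Entries reaching 1 RPM in 3 or more of the 6 libraries were fitted with limma 3.58.1 (R 4.3.3) on log2(RPM + 1), with a mean trend, cell type as the only term and Benjamini-Hochberg adjustment over the 503 entries tested. Calls needed an adjusted p under 0.05 and 2-fold. The scale understates changes of low entries. Fold values are ratios of mean RPM. With 0 hair matrix reads they are bounds against 3 reads over the group, and with 1 to 3 reads they carry an exact counting interval. edgeR 4.0.16 and DESeq2 1.42.0 were run on the recovered reads as alternatives, and edgeR without a filter was added after the data were seen. No pair of replicates agreed within counting noise (chi-square per degree of freedom 26.6 to 76.8). The limma fit, and edgeR on the entries that pass the filter, were tested on simulated data.

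Members, lists and tests were chosen with earlier results of these data known. Values in every library are given for the 12 members with the highest mean, members at a mean of 1 RPM or more in hair matrix cells, both arms of a hairpin where 1 is tested, tested members that were not called (there were 0), and the 2 members nearest the filter on each side. Other values and sequences singled out were chosen after they were seen. Reads without molecular identifiers are not independent molecules, so intervals and floors cover counting error only.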

Additional observations from a re-analysis of the deposited data

How the results depend on the processing

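The 33 calls were unchanged in number with a pseudocount of 0.5, TMM scaling, edgeR or DESeq2 on recovered reads, no minimum fold, and without any 1 library (tested entries held fixed). They were 34 of 46 tested members with no filter, 34 of 34 with RPM per listed total and 31 of 31 without near-identical entries. With median centring they were 31 of 33, and centring shifts all changes by 0.274. Over all entries, centring turns the split of calls from 55.9% higher in dermal papilla cells to 44.3% (109 higher in dermal papilla and 137 higher in hair matrix cells). With a pseudocount of 10 the members called fell to 21 and all entries called to 77 and 40. A filter of 10 RPM gave 21 of the 21 members left to test, and 80 and 47. No minimum fold gave 212 and 204 over all entries, and edgeR without a filter gave 42 members, 243 and 285. Of 267 values of the 15 named tested members under alternatives, 263 kept their direction and call, 4 lost the call (miR-487a and miR-376d, given above) and 0 reversed. For 31 of the 33 tested members the direction follows from the filter, so these counts carry no weight on direction. The log2 ratio of summed levels was 8.66, and 8.56 to 8.80 without any 1 library. The log2 ratio of the cluster to the RTL1 group in dermal papilla cells moved from 0.06 to -0.37 without miR-411a, and to 2.10 without miR-127, a setting chosen after seeing the data. With the replicate number as a block (replicate block) 33 members were called, and 101 entries higher in hair matrix cells against 100 without it. Same-numbered libraries correlated at 0.14, 0.08 and -0.27 in their deviations, and differently numbered ones at -0.43 to 0.39. With 3 libraries per group, these values cannot decide whether the numbers pair the samples. The mean 5p share of miR-380 was 0.114% and fell to 0 without dermal papilla library 1. Depth limits hair matrix values: 28 of the 46 members had 3 reads or fewer there.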

Other observations

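A further entry, miR-3578, is the exact reverse complement of miR-382 over 21 bases, and was picked out after its sequence was seen. It was at 2.13, 2.21 and 2.02 RPM in dermal papilla cells and had no hair matrix read, at least 51.8-fold higher (log2 change 1.64, limma adjusted p = 3.76e-07). Since miR-3578 passed the filter through its dermal papilla levels alone, its direction follows from the filter. miR-299 and miR-299-2, both members, are reverse complementary over 20 bases.

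Of the 430 entries at a mean of 1 RPM or more in dermal papilla cells, 40 had a ratio or bound above 100, and for 7 of the 40, with 1 to 3 hair matrix reads, the counting interval reaches under 100. Of these 7, 4 are members. The 40 were 28 members of the cluster, 7 entries of the RTL1 group and 5 others, which are named after their values were seen. miR-105a had 9.36 ± 0.256 RPM in dermal papilla cells (SD, n = 3) and no hair matrix read, at least 228-fold higher. miR-767 had 10.9 ± 1.48 RPM and 1 hair matrix read, a ratio of 798 with a counting interval of 142.8 to 31557. The others had 1 hair matrix read each: miR-2284w at 2.23 RPM (interval 28.9 to 6495), miR-6518 at 1.43 RPM (18.4 to 4170) and the predicted entry novel18 at 6.76 RPM (88.5 to 19608).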
